A study of Mus musculus with 8 samples.

Results

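The major histocompatibility complex (MHC) of the mouse lies on chromosome 17 and holds the H2- genes together with complement, proteasome and many other genes. The members described here are the 257 of 23373 genes named by a symbol on the array whose probe maps between positions 33000000 and 38500000 of chromosome 17 (mm9, as the array files give it), with Rps18 left out and each gene represented by its brightest probe. The region was chosen from ratios of Tet1 knockout (KO) over wild type (WT) in these same arrays, so every KO over WT value of a member is given as a description, and nothing is read from counts of members called on it. By role, 26 members are class I genes, 10 are class II genes, 3 are complement genes, 5 serve the immunoproteasome or peptide loading, 51 are olfactory receptors and 162 are other genes. Roles were assigned by gene symbol, so a class I gene without an H2- symbol is counted among the other genes.

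The study compared KO and WT mice, all naive and of the genetic background given as 129 C57BL6, in snap-frozen cortex and hippocampus. Its 4 groups were KO cortex, KO hippocampus, WT cortex and WT hippocampus, with 2 samples each. Each KO sample, in the dye Cy5, shared 1 of 4 arrays with a WT sample in Cy3, so genotype and dye cannot be told apart. The labels state neither which exons the KO allele lacks, nor which strain's alleles each mouse carried at the MHC, nor whether samples are separate animals, so the p-values cover no more than the scatter of these samples, and that scatter may be technical.

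Class I genes encode the heavy chain that, with beta-2 microglobulin (B2m), presents peptides from inside the cell to CD8+ T cells. The immunoproteasome cuts those peptides, the Tap1 and Tap2 transporter carries them into the endoplasmic reticulum, and tapasin (Tapbp) helps load them. Class II genes present peptides from outside the cell and are used by antigen-presenting cells, while in brain class I genes are also expressed by neurons and have been studied for roles at synapses.

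In KO samples (Cy5) 66.6% to 67.2% of spots, and in WT samples (Cy3) 49.7% to 51.7%, exceeded background clearly, and no spot was saturated. A gene was tested if its probe did so in both samples of 1 group or more, which left 16609 genes, 161 of them members. Of the other members, 95 were too dim and 1 (Ppp1r10) had an outlying spot. Of the 161, 124 were above background in every group and 31 passed only through KO samples, so the ratio of those 31 is open to the gap between the dyes. Tet1 itself had log2 KO over WT ratios of -0.18 and -0.20 in cortex and -0.23 and -0.10 in hippocampus, which missed the threshold (adjusted p = 0.0816, limma). A second probe lay below 0 on all 4 arrays (mean -0.22), and a dimmer one, above background in 2 of the 4 groups, lay above 0 on all 4. As a check of the tissue labels, 7 of 9 cortex markers were called higher in cortex in both genotypes, and 12 of 14 hippocampus markers were called lower.

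Class I genes gave lower signal in KO than in WT on most probes and in both tissues. Of 26 class I members 16 passed the filter, 3 of them only through KO samples, and 13 of the 16 had a mean log2 ratio below 0. Their median over all 4 arrays was -0.36, against 0.03 for all genes tested. By array it was -0.30 and -0.28 in cortex and -0.42 and -0.67 in hippocampus. Among the 12 class I genes above background in every group, the array medians were -0.37, -0.30, -0.49 and -0.73, and 12, 11, 12 and 12 of the 12 lay below 0. For all 26, with the dim probes included, the array medians were -0.26, -0.20, -0.22 and -0.33. The tissue is bulk, so fewer cells of a type and less RNA per cell cannot be told apart. Markers of endothelium, a cell type known for class I expression, lay below 0 too, in 13 of 14 cases over both tissues. Their array medians were -0.09, -0.05, -0.11 and -0.33. Of the 14, 2 were called lower and 0 higher, where 3.8% and 7.28% of all genes were. Among the 2 was the tight-junction gene Cldn5, named after its value was seen, at -0.59 (adjusted p = 0.028, limma). With limma's intensity trend and robust estimation 0 of 16609 genes passed, so that call was lost. The summed level of the endothelial markers was 47332 and 53599 in KO cortex against 57188 and 56461 in WT cortex, and 45756 and 45262 in KO hippocampus against 54450 and 62684 in WT hippocampus. Their part in the class I ratios was not tested.

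H2-K1, a classical class I gene, was measured by a probe at chr17:34133055-34133114 (mm9, minus strand). Its log2 level was 11.84 and 11.91 in KO cortex and 12.32 and 12.27 in WT cortex, and 11.75 and 11.72 in KO hippocampus and 12.25 and 12.59 in WT hippocampus. All 4 KO samples lay below all 4 WT samples, and the mean ratio was -0.55 ± 0.08 (SE, n = 4 arrays), or 0.681-fold. A second H2-K1 probe had a mean ratio of -0.50. H2-D1, the other classical gene of the array (probe chr17:35403886-35403945, plus strand), had log2 levels of 11.89 and 11.91 in KO cortex and 12.15 and 12.18 in WT cortex. In hippocampus H2-D1 stood at 11.49 and 11.52 in KO and 11.98 and 12.24 in WT. Here too no KO sample reached a WT sample, and the mean ratio was -0.44 ± 0.06 (SE, n = 4 arrays).

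Among the non-classical genes, H2-T23, which encodes Qa-1, a ligand of receptors on natural killer and T cells, had the lowest mean ratio. Its log2 level was 11.75 and 12.05 in KO cortex and 12.30 and 12.33 in WT cortex, and 10.80 and 11.02 in KO hippocampus and 11.60 and 11.83 in WT hippocampus. Within each tissue the genotypes did not overlap, but KO cortex overlapped with WT hippocampus. The mean ratio of H2-T23 was -0.61 ± 0.06 (SE, n = 4 arrays), or 0.654-fold.

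Of the Q genes, 4 had similar ratios. H2-Q2 had log2 ratios of -0.43 and -0.33 in cortex and -0.68 and -0.86 in hippocampus. A second H2-Q2 probe, above background in all 4 groups, lay nearer to 0, at -0.10, -0.19, -0.41 and -0.57. H2-Q6 had -0.37, -0.35, -0.55 and -0.73 on the arrays in the same order, and H2-Q7 had -0.34, -0.34, -0.55 and -0.90. H2-Q10, known in mouse as a secreted class I product of liver, had -0.25, -0.25, -0.38 and -0.63. For each of these 4 genes both hippocampus arrays lay below both cortex arrays. H2-Q8 lay at -0.14, -0.04, -0.22 and -0.52, and its probe was not well above background in WT cortex.

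The remaining class I genes were more mixed. H2-K2, a class I sequence next to H2-K1, had ratios of -0.38, -0.31, -0.49 and -0.84. H2-T9 (-0.26, -0.29, -0.17 and -0.29) and H2-T10 (-0.40, -0.36, -0.23 and -0.38) lay below 0 on every array and, unlike the Q genes, were no lower in hippocampus. H2-M3, which presents N-formylated peptides, stayed nearer to 0, with its lowest ratio at -0.23. H2-Gs10 lay at -0.52 and 0.31 in cortex and -0.45 and -0.20 in hippocampus, so its cortex arrays disagreed in sign. H2-T24 (0.10, 0.38, 0.19 and 0.05) and H2-M5 (0.29, 0.89, 0.73 and 0.65) lay above 0 on all 4 arrays, but neither was above background in WT. H2-Q1, also dim in WT, lay at 0.58, 0.39, 0.09 and -0.96. H2-M5 turned to -0.76 when arrays were centred on the median of all genes in place of loess.

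**Figure D1:**
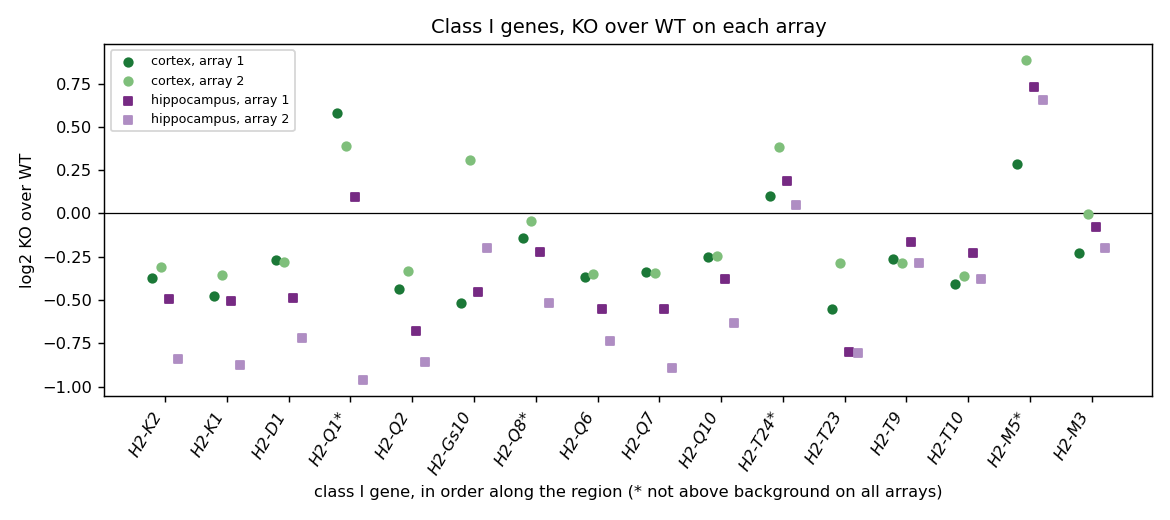
Log2 ratio of KO over WT (y axis) on each of the 4 arrays for the 16 class I genes that passed the filter, with a line at 0. Asterisks mark genes not above background on all arrays, and 12 of the 16 genes lie below 0 on every array, with array medians of -0.30 and -0.28 in cortex and -0.42 and -0.67 in hippocampus, while H2-T24 and H2-M5 lie above 0.

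Class I genes resemble one another closely in sequence, and a probe may bind RNA of several, so some gene names are uncertain. All 16 probes were set against each other in 120 pairs, the longest run of bases that any pair shared was 19, and 8 probes shared a run of at least 12. Probes were not compared with the RNA of the other class I genes, so these runs set no limit on what a probe may bind. One probe, that of H2-Q7, is listed for more than 1 gene, and by RefSeq accession the probe named H2-T9 is listed as H2-T22 and that named H2-Gs10 as H2-Q4. H2-Q5, which the array names without a position in the region and which is therefore no member, had ratios of -0.39, -0.30, -0.54 and -0.79. H2-Bl, no member on the same ground, differed, with ratios of 0.16 and 0.09 in cortex and -0.35 and -0.43 in hippocampus. The likewise unplaced H2-T18 probes were too dim, with mean ratios of -0.18, -0.72 and -0.02. The probe sequences of 3 of the lowest genes are shown, with capitals for runs that a probe shares with either of the other 2 (5′ to 3′, mm9). H2-Q2 lies at chr17:35482113-35482172 and H2-Q6 at chr17:35565247-35565306, both on the plus strand, and H2-T23 spans chr17:36167338-36167574 on the minus strand.
H2-Q2: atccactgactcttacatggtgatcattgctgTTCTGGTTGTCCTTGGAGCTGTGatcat
H2-Q6: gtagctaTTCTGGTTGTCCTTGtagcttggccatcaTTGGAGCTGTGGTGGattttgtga
H2-T23: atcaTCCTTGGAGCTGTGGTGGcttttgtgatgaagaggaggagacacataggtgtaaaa

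The promoters of the class I genes are shown because textbook control elements of these genes sit there and because members moved together. The 250 bases before the start were taken from RefSeq (GRCm38.p6), which matched 9 of the 16 class I genes, and searched on both strands for 4 short motifs. These were GGGATTCCC, a kappa-B site, GTTTCNNTT, an interferon-stimulated response element, TGACG, an X box of the kind bound by CREB proteins, and ATTGG, a Y box. None of the 4 contains another, and the letters were set from the elements as they stand in the H2-K1 promoter. Among 27025 promoters the motifs occurred in 0.31%, 4.99%, 17.86% and 34.46%. Among the 9 class I promoters they occurred in 4, 6, 4 and 7. The X box and the Y box were also frequent in other promoters of the region, with the Y box in 5 of 6 class II and 3 of 4 peptide loading promoters and the X box in 34 of 100 promoters of other genes. All 4 together were found in 3 promoters of the whole table, those of H2-K1, H2-D1 and H2-Q7. Since the letters came from H2-K1, that promoter had to hold all 4, and it is among the 9. Class I genes also resemble one another closely in sequence, so these counts are no test of what sets class I apart. B2m held the X box and the Y box, and H2-T23 held only the Y box. A match is a description of the letters and not evidence of a bound factor. Capitals mark matches on either strand (ATTGG reads CCAAT on the other strand). The windows, all on chromosome 17 except that of B2m, are chr17:34000348-34000597 (minus strand), chr17:35262844-35263093 (plus), chr17:35438905-35439154 (plus), chr17:36032702-36032951 (minus) and chr2:122147437-122147686 (plus), in the order of the lines.
H2-K1: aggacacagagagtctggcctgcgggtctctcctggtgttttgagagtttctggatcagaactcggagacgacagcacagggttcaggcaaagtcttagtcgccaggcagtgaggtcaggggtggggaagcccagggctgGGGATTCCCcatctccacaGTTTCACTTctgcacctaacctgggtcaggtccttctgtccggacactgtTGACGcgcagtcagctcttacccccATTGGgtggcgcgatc
H2-D1: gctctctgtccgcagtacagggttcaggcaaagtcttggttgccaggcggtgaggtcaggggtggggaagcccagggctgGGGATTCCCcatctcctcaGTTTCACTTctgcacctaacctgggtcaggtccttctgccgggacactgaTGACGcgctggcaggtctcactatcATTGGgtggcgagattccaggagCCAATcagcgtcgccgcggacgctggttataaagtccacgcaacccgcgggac
H2-Q7: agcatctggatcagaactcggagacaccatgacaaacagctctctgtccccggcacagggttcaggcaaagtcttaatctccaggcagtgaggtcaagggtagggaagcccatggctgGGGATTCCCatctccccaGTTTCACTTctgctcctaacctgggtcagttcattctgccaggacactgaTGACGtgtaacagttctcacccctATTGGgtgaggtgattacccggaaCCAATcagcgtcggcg
H2-T23: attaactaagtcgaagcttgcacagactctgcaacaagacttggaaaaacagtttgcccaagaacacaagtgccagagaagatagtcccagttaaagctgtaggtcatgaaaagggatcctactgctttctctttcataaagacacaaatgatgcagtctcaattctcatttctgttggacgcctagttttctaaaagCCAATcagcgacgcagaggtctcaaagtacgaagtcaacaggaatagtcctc
B2m: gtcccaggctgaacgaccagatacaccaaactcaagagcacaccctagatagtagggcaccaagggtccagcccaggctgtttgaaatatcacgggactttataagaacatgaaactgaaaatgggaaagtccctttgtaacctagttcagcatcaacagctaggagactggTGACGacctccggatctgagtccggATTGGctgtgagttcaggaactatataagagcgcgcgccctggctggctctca

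Genes that prepare class I peptides also had ratios below 0. Psmb8 and Psmb9 are interferon-inducible subunits of the immunoproteasome. Psmb8 had log2 levels of 9.24 and 9.33 in KO cortex and 9.65 and 9.67 in WT cortex, and 9.35 and 9.29 in KO hippocampus and 9.67 and 9.84 in WT hippocampus. All KO samples lay below all WT samples, with a mean ratio of -0.40 ± 0.06 (SE, n = 4 arrays). Psmb9 had ratios of -0.29, -0.26, -0.30 and -0.46, and Tap2 had -0.21, -0.18, -0.30 and -0.44. Tapbp was split by tissue, at 0.14 and -0.03 in cortex and -0.23 and -0.41 in hippocampus. Tap1 lay between -0.10 and -0.02 and was not above background in WT. The median of the 5 genes was -0.28, and 4 of the 5 lay below 0 on all 4 arrays.

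The 3 complement genes of the region differed. C4b, a component of the classical pathway, had ratios of -0.43, -0.28, -0.35 and -0.63. C2, the serine protease that pairs with C4b in the convertase, had log2 levels of 9.06 and 9.09 in KO cortex and 9.35 and 9.38 in WT cortex, and of 7.96 and 8.22 in KO hippocampus and 9.14 and 9.89 in WT hippocampus. KO C2 was below WT in each tissue and furthest in hippocampus, with ratios of -0.29 and -0.29 in cortex and -1.18 and -1.67 in hippocampus. Cfb, factor B of the alternative pathway, lay at 0.15, 0.17, 0.25 and -0.20 and was dim in WT.

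The chains of I-A and I-E split by tissue. Of 10 class II genes 7 passed the filter, 2 of them only through KO samples. H2-Ab1, the beta chain of I-A, had log2 levels of 10.20 and 10.51 in KO cortex and 9.68 and 10.15 in WT cortex. In hippocampus H2-Ab1 stood at 8.19 and 9.55 in KO and 8.95 and 10.96 in WT. Both KO samples lay above both WT samples in cortex, while in hippocampus KO was below WT on each array but the samples overlapped. The ratios of H2-Ab1 were 0.52 and 0.36 in cortex and -0.76 and -1.40 in hippocampus, and a second probe gave 0.48, 0.21, -0.72 and -1.53. H2-Eb1, the beta chain of I-E, ran the same way, at 0.24, 0.04, -0.76 and -1.25. H2-Aa, the alpha chain of I-A, lay at -0.10, -0.31, -0.84 and -1.31. Over all 16609 genes, limma's test of the KO effect in cortex minus hippocampus called 0 (0%), with 746 at an unadjusted p under 0.05, and no p is given for members, whose ratios chose the region.

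The genes that edit class II peptides did not share that pattern. H2-DMa lay at 0.13, 0.10, -0.02 and 0.26, H2-DMb1 at -0.01, 0.07, 0.01 and -0.78, and H2-Oa at 0.06, -0.18, 0.33 and 0.14. H2-Ob lay above 0 on all 4 arrays (0.06 to 0.50) and was dim in WT. The class II median was -0.18, and it turned to 0.02 without hippocampus replicate 2.

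Markers of tissue at the brain's surface and ventricles changed sign between the tissues as H2-Ab1 and H2-Eb1 did, and in hippocampus lay below 0 as H2-Aa and C2 did. In cortex, where H2-Aa and C2 lay below 0, the lists of choroid plexus and leptomeninges lay above 0. By the mean of each tissue's arrays, all 17 choroid plexus markers had KO above WT in cortex and below WT in hippocampus, with array medians of 0.54, 2.06, 0.04 and -2.83. Their summed level was 294647 and 191088 in KO cortex against 170830 and 41590 in WT cortex, and 30844 and 44661 in KO hippocampus against 32624 and 439673 in WT hippocampus. Leptomeningeal markers lay above 0 in cortex in 12 of 13 cases and below 0 in hippocampus in 13 of 13, with array medians of 0.43, 0.11, -1.23 and -1.63. Their summed level ranged between 26848 and 30385 in KO cortex and 23363 and 23979 in WT cortex, and between 19452 and 31502 in KO hippocampus and 33538 and 56273 in WT hippocampus. Of 8 perivascular macrophage markers 7 were kept (Cd163 was not), 6 of them above 0 in cortex and all 7 below 0 in hippocampus, with array medians of 0.26, -0.02, -0.37 and -0.86. Their summed level was 3516 to 3824 in KO cortex and 3100 to 3488 in WT cortex, and 2352 to 2465 in KO hippocampus and 2967 to 4301 in WT hippocampus. Lymphocyte and dendritic cell markers were kept in 7 of 13 cases, with Cd3g, Cd8a and Itgax among those too dim, and their summed level lay between 2954 and 3639 in KO and between 3058 and 3821 in WT. The part of these cells in the class II and complement values was not tested. In cortex, where class I genes lay below 0, the choroid plexus and leptomeningeal lists lay above 0, and the endothelial list (12 of 14) and the microglial list (14 of 18) lay mostly below 0. In hippocampus, where class I genes lay below 0 as well, the microglial list was split, with 9 of 18 below 0. There the endothelial (13 of 14), choroid plexus (17 of 17) and leptomeningeal (13 of 13) lists lay below 0. The part of these cells in the class I ratios was not tested.

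**Figure D2:**
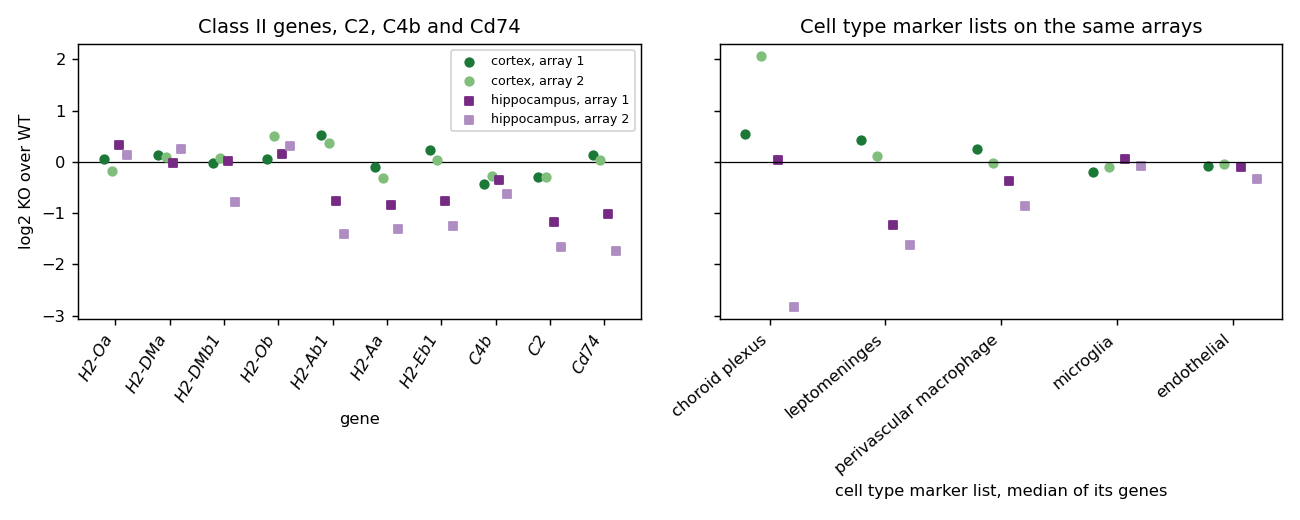
Log2 ratio of KO over WT (y axis) on each of the 4 arrays for class II and complement genes, and for Cd74, beside the medians of 5 marker lists of other cell types. H2-Ab1, at 0.52 and 0.36 in cortex and -0.76 and -1.40 in hippocampus, changes sign with the leptomeningeal list, at 0.43, 0.11, -1.23 and -1.63.

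Of the 126 other genes that passed the filter, 63 lay above 0 and 63 below. Named here are the 10 with the largest mean ratio among those with 1 sign on every array. Col11a2, a chain of type XI collagen, had log2 levels of 7.75 and 8.13 in KO cortex and 8.72 and 8.91 in WT cortex, and 8.16 and 7.99 in KO hippocampus and 8.86 and 8.51 in WT hippocampus. No KO sample reached a WT sample, and the mean ratio was -0.74 ± 0.06 (SE, n = 4 arrays). Tnxb, a tenascin of the extracellular matrix, was lower in KO in hippocampus, at -1.26 and -0.85, and near 0 in cortex, at -0.06 and -0.02. Gm11127, a predicted gene that lies between H2-T9 and H2-T10 and is counted as other by its symbol alone, had -0.39, -0.26, -0.71 and -0.80. Ly6g6e, of the Ly6 family, had -0.82, -0.47, -0.23 and -0.21, so it was furthest below 0 in cortex. Msh5, a meiotic MutS homologue, lay at -0.54, -0.63, -0.42 and -0.43 and was dim in WT.

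Of these 10 genes 5 had a higher signal in KO, and 3 of the 5 were dim in WT. Rnf39, a RING finger protein measured well in both genotypes, had log2 levels of 10.20 and 10.15 in KO cortex and 9.48 and 9.68 in WT cortex, and 9.53 and 9.34 in KO hippocampus and 9.03 and 8.65 in WT hippocampus. KO lay above WT in each tissue, with a mean ratio of 0.60 ± 0.07 (SE, n = 4 arrays). The zinc finger gene Zfp81 had 0.48, 0.33, 0.41 and 0.48. Its other probes lay nearer to 0, with means of 0.17, -0.02 and 0.12, and the last was above background in only 2 groups. Psors1c2 (0.75, 0.84, 0.32 and 0.87), Gm8909 (0.71, 1.12, 0.52 and 0.28) and Actl9 (0.31, 0.76, 0.42 and 0.39) were not above background in WT, and with median centring in place of loess their means turned to -0.72, -0.10 and -0.92. With loess, Gm8909 in KO cortex stood 1.67-fold higher, counted against the lowest signal well above background in WT. Gm8909 passed the filter only through KO samples, so this value is open to the gap between the dyes and is not a lower limit. The olfactory receptors Olfr96, Olfr97, Olfr103 and Olfr128 passed the filter only through KO samples, which selects for ratios above 0. All 51 receptors, taken without the filter, had array medians of -0.0040, -0.060, -0.090 and -0.062.

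Members known from brain cell types, named after their values were seen, were uneven. Gabbr1, a subunit of the GABA-B receptor, lay at 0.02, 0.08, -0.07 and 0.05. Aif1, a microglial marker, lay at -0.28, -0.23, 0.06 and -0.13, and Mog, of myelin, at -0.33, -0.06, -0.01 and -0.67. The microglial list of 18 markers, Aif1 among them, had array medians of -0.20, -0.09, 0.05 and -0.08.

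**Figure D3:**
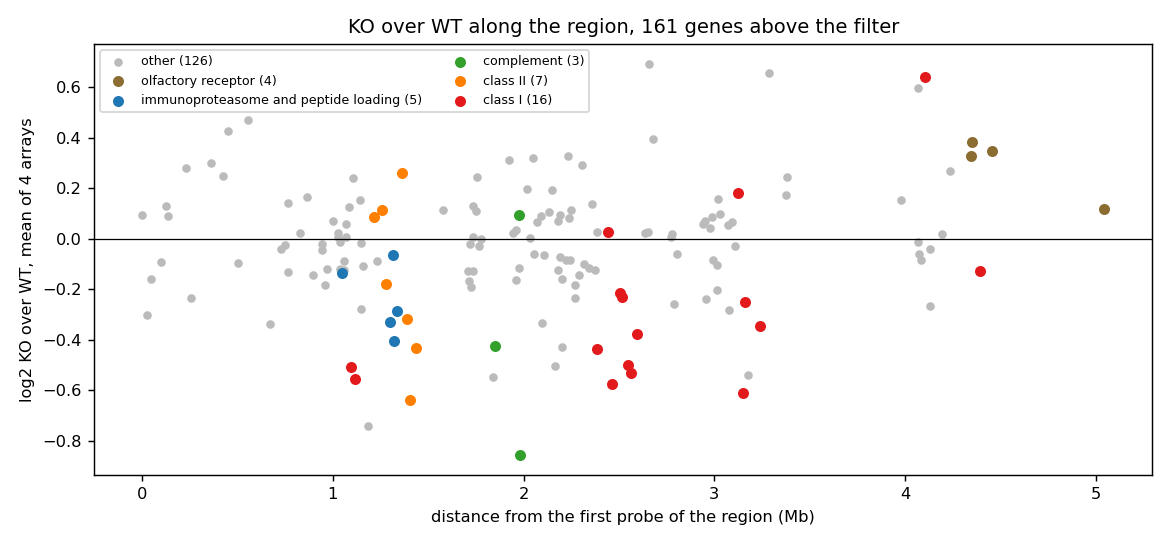
Log2 KO over WT of the members (y axis, mean of 4 arrays) against position in the chosen window (x axis, distance along the region), coloured by role. Class I genes lie mostly below 0, with a median of -0.36, and other genes lie on both sides.

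At the lower edge of the window the ratios were near 0, and at the upper edge they lay above 0. Zfp799, just outside the lower edge, lay between 0.01 and 0.08, and Zfp870, just inside it, between -0.15 and 0.24. Olfr128, the last tested gene inside the upper edge, lay between 0.04 and 0.29, and Rn18s, the next outside, between 0.14 and 0.62. The 81 tested genes in the stretch of equal length before the window had a median of 0.03, and the 14 in that after it a median of -0.02.

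Over the mean of both tissues, 13 of the 161 members passed the limma threshold as higher in KO and 26 as lower, where 7.28% and 3.8% of all genes did. Of these, class I gave 1 higher and 10 lower, peptide loading 3 lower, complement 2 lower, class II 1 lower, olfactory receptors 2 higher, and other genes 10 higher and 10 lower. KO lay below WT on all 4 arrays for 57 members and above for 40, against 17.6% and 28.3% of all genes. The region was chosen on these ratios, so nothing is read from the counts. In single tissues no member passed, where 0.0602% of genes did in cortex and 0.0181% in hippocampus. The count of 39 members fell to 0 without any 1 array, and to 0 when outlying local backgrounds were kept as measured.

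Class I partners encoded outside the region did not enter its choice and were tested. Their list was set with earlier results of these same arrays known, so the tests are not independent of these data. B2m, on chromosome 2, had log2 levels of 13.09 and 13.06 in KO cortex and 13.40 and 13.20 in WT cortex, and 12.88 and 12.77 in KO hippocampus and 13.23 and 13.34 in WT hippocampus. No KO sample reached a WT sample, and B2m was lower by a log2 ratio of -0.34 ± 0.06 (SE, n = 4 arrays, adjusted p = 0.0441, limma). Tapbpl, a tapasin-like peptide editor, was lower on all 4 arrays (-0.28, -0.41, -0.33 and -0.42), with a mean of -0.36 ± 0.05 (SE, adjusted p = 0.0327, limma). Psme3, a proteasome activator subunit, was higher, at 0.50, 0.60, 0.58 and 0.55, with a mean of 0.56 ± 0.05 (SE, adjusted p = 0.0214, limma). Of the 18 genes of this list, 1 was higher and 2 were lower, where 7.28% of all genes were higher and 3.8% lower, and the list's median was 0.01 against 0.03. Nlrc5, the transactivator of class I genes, had a log2 ratio of 0.31 (adjusted p = 0.0718, limma) and was not above background in WT. With median centring it turned to -0.87 (adjusted p = 0.000975, limma). Irf1, an interferon-induced transcription factor of these promoters, had 0.00 (adjusted p = 0.981, limma), and the 24 kept genes of an interferon response list had a median of -0.03 with 1 higher and 2 lower. The 3 calls were lost without any 1 array, for B2m at adjusted p between 0.073 and 0.189 (limma), with outlying local backgrounds kept (B2m 0.126) and with the intensity trend and robust estimation (0.0756 to 0.0758). B2m was also lost with processed signals (adjusted p = 0.0897, limma) and with median centring, where its ratio was -0.11 (adjusted p = 0.15).

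Class II and complement partners were tested likewise. Cd74, the class II invariant chain, had log2 ratios of 0.13 and 0.04 in cortex and -1.02 and -1.74 in hippocampus, with a mean of -0.65 ± 0.13 (SE, adjusted p = 0.0478, limma). The sign split by tissue was that of H2-Ab1 and H2-Eb1, and its test of cortex minus hippocampus gave adjusted p = 0.932. Rfx5, a class II promoter factor, was lower by -0.26 (adjusted p = 0.0405, limma) but was dim in WT, and its direction turned with processed signals (0.11) and with the mean of all its probes (0.31), while median centring gave -1.49. In all, 2 of the 11 kept genes of the class II list were lower and 0 higher, where 3.8% of all genes were lower and 7.28% higher. Ciita, the class II transactivator, was too dim. The median of the 11 kept genes was -0.05. C1qa and C1qb, chains of the C1q complement protein that microglia make in brain, were named after their values were seen. They were lower at -0.53 and -0.50 (adjusted p = 0.0245 and 0.0253, limma). C1qc, a further C1q chain, was not called, at -0.13 (adjusted p = 0.161, limma). C1qa and C1qb were 2 of 11 kept complement genes called lower, with 0 higher, against the same shares of all genes. The median of these 11 was -0.22, and C5ar1 and Masp1 were too dim. All 4 of these calls were lost without any 1 array, at adjusted p between 0.0673 and 0.201 (limma), with outlying local backgrounds kept and with the intensity trend and robust estimation. Cd74 was also lost with the deposited value table (0.0581) and with no replicate block (0.302), and Rfx5 with the deposited value table (0.0588).

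Differences between tissues were not themselves the values that chose the region, and they were tested in each genotype. They are not free of that choice, since the KO difference is the WT difference plus the cortex ratio minus the hippocampus ratio. The p-values of members between tissues carry that limit, above all where a gene passed only in KO. In KO, 17 of 161 members were higher in cortex than in hippocampus and 7 lower, against 7.63% and 7.35% of all genes. In WT, 13 were higher and 6 lower, against 7.27% and 7.85%. The genotypes shared 11 of the higher genes and 6 of the lower. Of the 16 class I genes 7 were higher in cortex in KO and 4 in WT, and none was lower. Their median difference was 0.33 in KO, with 15 of 16 above 0, and 0.06 in WT, with 11 of 16 above 0, against -0.01 and -0.03 for all genes. Markers of other cell types differed from list to list. Leptomeninges had medians of 1.16 in KO and -0.35 in WT (8 of 13 called higher and 1 lower in KO, 0 and 2 in WT). Choroid plexus had 2.03 and -0.31, and perivascular macrophages had 0.56 and -0.08. Endothelium had 0.19 and 0.00 (13 of 14 above 0 in KO, 8 of 14 in WT). Microglia had 0.02 and 0.17 (10 of 18 above 0 in KO, 16 of 18 in WT), and lymphocyte and dendritic cell markers had 0.04 and 0.07. The part of these cells in the class I differences was not tested. The larger number of class I calls in KO is not shown to differ from that in WT, since the test between genotypes called no gene.

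Class I genes that passed in both genotypes were H2-T23, H2-Q2, H2-Q10 and H2-M3. H2-T23 was higher in cortex by 0.99 ± 0.13 in KO (SE, adjusted p = 0.00315, limma) and 0.61 ± 0.13 in WT (SE, adjusted p = 0.0223), or 1.98-fold and 1.52-fold. H2-Q2 was higher by 0.78 ± 0.10 in KO (SE, adjusted p = 0.00344) and 0.40 ± 0.10 in WT (SE, adjusted p = 0.046). H2-Q10 differed by 0.72 in KO and 0.47 in WT, and H2-M3 by 0.62 and 0.60. H2-Q6, H2-Q7 and H2-D1 passed in KO, at 0.51, 0.39 and 0.39, and not in WT, at 0.22, 0.00 and 0.06. H2-K1 passed in neither (0.15 in KO and -0.13 in WT).

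The largest tissue differences of the region included genes not counted as class I. Gm11127 had log2 levels of 11.51 and 11.57 in KO cortex and 10.31 and 10.52 in KO hippocampus, and 11.90 and 11.83 in WT cortex and 11.03 and 11.32 in WT hippocampus. It was higher in cortex by 1.12 ± 0.11 in KO (SE, adjusted p = 0.0011, limma) and 0.69 ± 0.11 in WT (SE, adjusted p = 0.00789). Tcf19, a transcription factor, was higher by 0.93 in KO and 1.06 in WT (adjusted p = 0.000474 and 0.000264, limma). Cdsn, corneodesmosin, was higher by 0.85 in KO. In WT, where hippocampus was not above background, the estimate for Cdsn was 0.97, and it ranged from 0.67 to 1.81 across the alternatives. Rnf39 was higher by 0.74 in both genotypes. C2 was higher in cortex in KO, by 0.98 ± 0.21 (SE, adjusted p = 0.0238), and stood at -0.15 in WT (adjusted p = 0.687). Gm8909 passed in KO, at 0.79, and was not above background in WT.

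Lower in cortex were C4b, Tnxb, Prrt1, AA388235, H2-Ke6 and Atf6b, in both genotypes. C4b had log2 levels of 11.67 and 11.91 in KO cortex and 12.61 and 12.56 in KO hippocampus, and 12.10 and 12.20 in WT cortex and 12.96 and 13.20 in WT hippocampus. Its difference was -0.80 ± 0.11 in KO (SE, adjusted p = 0.00461, limma) and -0.93 ± 0.11 in WT (SE, adjusted p = 0.00239). Tnxb was lower by -0.49 in KO and -1.50 in WT (adjusted p = 0.0385 and 0.000476, limma). Prrt1, a partner of AMPA receptors, was lower by -0.61 in KO and -0.72 in WT. Ly6g6e was lower in KO, by -0.97 ± 0.18 (SE, adjusted p = 0.0139), and stood at -0.54 in WT (adjusted p = 0.0979).

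**Figure D4:**
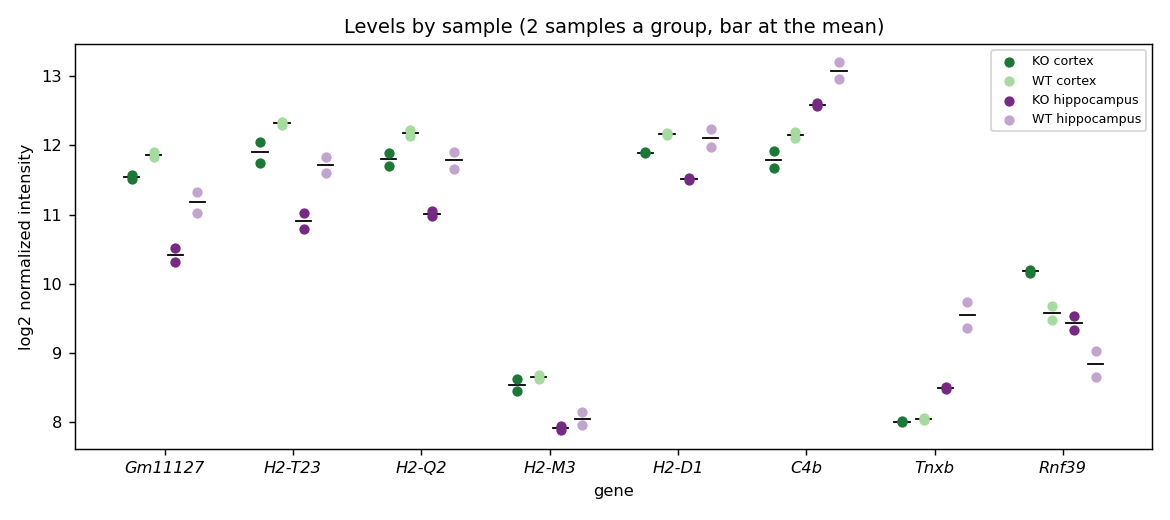
Log2 normalised intensity (y axis) of 8 members in each of the 8 samples, with points for samples, bars at group means and KO left of WT in each tissue. H2-T23 lies higher in cortex than in hippocampus in both genotypes, by 0.99 in KO and 0.61 in WT, and C4b lies lower, by -0.80 and -0.93.

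The count of tissue calls rests on both cortex arrays. Without cortex replicate 1 or 2, 4 and 3 members passed in KO and 4 and 3 in WT, and 2 and 0 class I genes passed as higher in KO. No class I gene passed as higher in WT without cortex replicate 1, cortex replicate 2 or hippocampus replicate 1, and H2-Q1, dim in WT, passed as lower without the last. Gm11127 and Tcf19 in KO, and Tcf19, Tnxb and C4b in WT, passed in every alternative that was run. H2-T23 in KO was lost only without cortex replicate 2. With Feature Extraction's processed signals the KO split was 15 higher and 10 lower, where 1233 of the 2651 genes called over the array were higher.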

How the data were processed

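Total RNA from KO and WT tissue was amplified, labelled and hybridised to 2-colour Agilent arrays. Per the file headers, Feature Extraction 10.1.1.1 wrote the deposited intensity values. Its own log10 ratio, also deposited, was used for no result. The authors also deposited a value table on the log2 scale, 1 value per channel, with a background step not given in the sources used here. It correlated with the loess ratios at r = 0.940 to 0.968, in the direction KO over WT, and was used as an alternative. limma is named in the submitters' processing notes.

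The software was R 4.3.3, with limma 3.58.1 for all fits and data.table (1.17.8) to read the files. Background was corrected with normexp (offset 50), with spots marked as having an outlying local background given the array's median, and arrays were normalised with loess (span 0.3, 1377 control spots at weight 0). Spots of a probe were averaged. Log ratios were fitted with 1 mean per tissue by lmFit and eBayes (2 residual and 2.62 prior degrees of freedom). Tissues were compared within a genotype on single channels after Aquantile (lmscFit, intraspot correlation 0.192). Adjusted p is Benjamini-Hochberg over 16609 genes, with a threshold of 0.05. The 4 arrays lay on 1 slide, so slide gives no batch to test, and their number limits precision. A probe not well above background in a group has only a bound there, open to dye bias. The fit was tested on simulated data.

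The 8 samples were grouped by the labels. The genes named are the kept class I, class II, complement and peptide loading members, the 10 other genes with the largest mean ratio and 1 sign on all arrays, up to 6 tissue calls in each direction and genotype, and the kept genes of the pathway lists outside the region. Gabbr1, Aif1, Mog and the complement and interferon genes outside the region were named after their values were seen. Alternatives changed the background, normalisation, value table, filter, probe choice, block, variance model and arrays. The members, lists and background step were chosen with earlier results of these data known.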

Additional observations from a re-analysis of the deposited data

How the results depend on the processing

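The 39 members called over both tissues became 25 with Feature Extraction's processed signals, 99 with median centring, and 0 with outlying local backgrounds kept, with the intensity trend and robust estimation, or without any 1 array (0 to 0). The 1840 of 16609 genes called over both tissues became 1186 with the processed signals and 10496 with median centring. In cortex the 0 members called became 1, 73, 2 and 1, and in hippocampus 10, 89, 13 and 12, with the processed signals, with median centring, with no replicate block and with the replicate block. Over all 16609 genes the 10 called in cortex became 135, 7371, 303 and 121 in the same order. The 3 called in hippocampus became 365, 8410, 458 and 402, so nothing is read from the member counts. The cause of these shifts was not tested. Median centring put the median of all genes at 0.51 to 0.60, and values are given relative to it. It turned H2-M5 to -0.76, Psors1c2 to -0.72, Gm8909 to -0.10, Actl9 to -0.92 and Cdsn to -0.054. Over all genes 1209 of 1840 calls were higher, against 4738 of 10496 with median centring.

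Between tissues, 24 members were called in KO and 19 in WT. The pairing of array numbers across tissues had r = 0.162 over 2 pairs and is not given by the labels. The replicate block left 14 members in KO and 14 in WT, where 2487 and 2512 calls over all genes became 1648 and 1705. Leaving out 1 array gave 3 to 26 in KO and 3 to 18 in WT, and the difference of H2-Q1 in WT was -0.62 to 0.73 across them, -0.62 without hippocampus replicate 1. Fits without 1 array used the intraspot correlation of all 4, and the lone sample is assumed to vary like the other groups. The class I median stayed below 0 in every alternative run, between -0.52 and -0.24. Single KO over WT values of named genes held within 1 spread in 646 cases and moved further in 74. Signal over background in WT limits the dim members.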
